A study of Sus scrofa with 12 samples.

Results

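The genes described here encode proteins of the centrosome and the centriole. They were taken as all RefSeq mRNA genes of the pig genome (Sscrofa11.1) whose symbol is CEP followed by a number, which gave 35 genes, and 10 genes added by name (PCNT, PCM1, NIN, NINL, CNTROB, CENPJ, SASS6, STIL, PLK4 and OFD1). The list therefore held 45 of 20665 mRNA genes. The rule uses symbols only, but the genes were picked for study with earlier results of these data known. They lie on 18 chromosomes, apart from 2 genes (PCNT and CEP170B) on unplaced scaffolds.

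Semen came from 3 Duroc boars, 5 ejaculates from each and 15 in all, and was studied fresh (Fs) and after freezing and thawing (Fts). Each ejaculate was divided, and one part was frozen for RNA extraction without an extender (Fs). The other part was cooled to 17 °C, taken up in lactose-egg yolk extender, cooled to 4 °C, given extender with glycerol at 6%, held in vapour at about -130 °C and stored in liquid nitrogen (Fts). The m6A-bearing RNA fragments, about 100 nucleotides long, were pulled down with an antibody against m6A and sequenced (IP), with an input library for each, and peaks were called in each of the 3 Fs and 3 Fts IP samples. The labels give no age and do not say whether equal numbers in Fs and Fts stand for the same boar.

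A centrosome is a pair of centrioles, barrels of microtubules, inside a protein matrix called the pericentriolar material. New centrioles are built on old ones by a kinase and a cartwheel scaffold, and a mature centriole carries distal appendages, which dock it to a membrane, and subdistal appendages, which anchor microtubules. In sperm, one centriole grows the flagellum, and the centrioles sit in the neck between head and tail. N6-methyladenosine (m6A) is a mark on adenosines of mRNA that is written mostly within the sequence RRACH, where R is A or G and H is A, C or T, with GGACT as a strong form.

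The sequences below are stretches of 25 bases from exons on which the results turn, each from the region that the peaks of all samples with a peak in that exon have in common. They are written 5′ to 3′ on the transcript strand, from the RefSeq assembly Sscrofa11.1, and all lie in coding sequence. Capitals mark a match to RRACH, GGACT where there is one, and a match is a description of the letters, not a mapped site. Only exons that gave a stretch around such a match are shown, and not all of those. CEP112 exon 6, CEP162 exon 1 and CEP97 exon 9, found in Fs alone, gave none. Nor did CEP164 exon 11, which holds no match to RRACH. The first 8 stretches come from exons with a peak in all 3 Fts samples, 7 of which had none in any Fs sample. The next 3 come from exons with a peak in all 3 Fs samples and no Fts sample, and the last from the single exon with a peak in all 6 samples.
CEP128 exon 10, chr7:103691105-103691129, minus strand: ggatcaactgGGACTtatttctttg
CEP164 exon 8, chr9:44718028-44718052, plus strand: gggatgtggcGGACCtgggggtgta
CEP164 exon 14, chr9:44736201-44736225, plus strand: agtggcccagGAACTcgagcaagat
CEP350 exon 9, chr9:121631188-121631212, plus strand: gaaaattctgGGACCtgcacccaga
CEP350 exon 10, chr9:121632712-121632736, plus strand: ccttaaataaGGACTttttacctgt
CEP57 exon 4, chr9:27836918-27836942, plus strand: gaaagtgtgaAAACCttgtctaaag
CEP95 exon 11, chr12:14533509-14533533, minus strand: ttggaaatggAGACCtggagagtgg
NIN exon 20, chr1:180518671-180518695, minus strand: gctgaggctgAAACAcgagctggag
NIN exon 19, chr1:180520657-180520681, minus strand: aacatcacagGGACTtgggtcacct
CEP192 exon 39, chr6:96642282-96642306, minus strand: gtccaaaagaGGACAtttgcatttc
CEP250 exon 9, chr17:38825185-38825209, plus strand: gaatgggagtGAACCatcccagctg
CEP128 exon 19, chr7:103589285-103589309, minus strand: cattctccagGGACTcgatggagaa

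Of the 45 genes, 36 had a same-strand peak on an exon in at least 1 sample. No peak was found in any sample on the other 9 genes, which included CEP131, CEP295NL, CEP55, CEP68, CEP72, NINL, OFD1 and SASS6. SASS6 forms the hub of the cartwheel and OFD1 acts at the distal end of the centriole. The 36 genes held 331 peaks over the 6 samples, of which 1 also lay on an exon of another gene. A peak marks a place where the authors' caller scored IP reads above the input, and many of these scores were low. It measures neither the amount of an mRNA nor the share of its copies that carry m6A, and transcript abundance was not tested.

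The deposited lists held 8015 to 10378 peaks for an Fs sample and 9682 to 11982 for an Fts sample. Sequencing depth per library was not used here. The score of a peak is the authors' MACS score, 10 times -log10 of its p-value against the input, so that a score of 50 stands for a p-value of 1e-05. It moves with read depth and with the input and is given as a description. On this scale a MACS p-value of 0.05 is a score of 13.0. The median score of the centrosome peaks was 8.65, 8.165 and 10.03 in Fs and 12.84, 16.93 and 15.35 in Fts. Over all exonic peaks it was 11.85, 11.41 and 10.67 in Fs and 13.13, 16.17 and 13.41 in Fts. Most centrosome peaks of each Fs sample thus lay under the score for 0.05, and counts of presence include such weak peaks. The value 3100 was shared by 12 to 14 peaks of each Fs list and 34 to 67 of each Fts list, so that scores at this value do not rank peaks. Of 15 sperm and spermatid marker genes, 7 had a peak. None was found on PRM1, TNP1, ODF1, AKAP4, SMCP, GAPDHS, TSSK6 or HSPA1L. PRM2, PRM3, TNP2, ODF2, SPATA18 and CABYR had peaks in Fts samples only. Their highest scores were 3100 on PRM2 and PRM3, 2075.39 on TNP2, 381.36 on ODF2, 44.6 on SPATA18 and 3.6 on CABYR. AKAP3 went the other way and held all the Fs peaks, with 2, 1 and 3 in Fs and 0, 0 and 1 in Fts. The peaks on these 15 genes numbered 2, 1 and 3 in Fs and 5, 6 and 4 in Fts.

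The first question was how many peaks the centrosome genes carried in fresh and in frozen-thawed sperm. The 3 Fs samples held 33, 46 and 41 peaks on these genes, and the 3 Fts samples held 65, 79 and 67. The groups did not overlap, and each Fts sample lay above the Fs sample of the same number. The mean was 40.0 ± 6.56 in Fs and 70.3 ± 7.57 in Fts (SD, n = 3), a difference of 30.3 peaks and a ratio of 1.76. Over all mRNA genes the number of exonic peaks went from 8120 ± 1129 to 9844 ± 1190, a ratio of 1.21. The centrosome genes thus held 0.484, 0.522 and 0.470% of all exonic peaks in Fs and 0.766, 0.762 and 0.627% in Fts, and they make up 0.352% of the exonic bases. The genes were chosen with earlier results of these data known, and for that reason these totals are given without a p-value.

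The number of centrosome genes with a peak was much closer between the groups than the number of peaks. The Fs samples had 20, 23 and 26 such genes and the Fts samples had 23, 24 and 26, and these ranges overlap. Peaks per gene with a peak averaged 1.74 ± 0.226 in Fs and 2.90 ± 0.363 in Fts, beside 1.35 ± 0.0488 and 1.62 ± 0.0821 over all mRNA genes. Per 10 kb of exon, the centrosome genes had 1.38 ± 0.226 peaks in Fs and 2.42 ± 0.260 in Fts, against 0.982 ± 0.137 and 1.19 ± 0.144 over all mRNA genes. Centrosome genes are long: their median exonic length was 5755 bp with 19 exons, beside 2990 bp over all mRNA genes and 3772 bp over the 11705 genes with a peak.

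**Figure D1:**
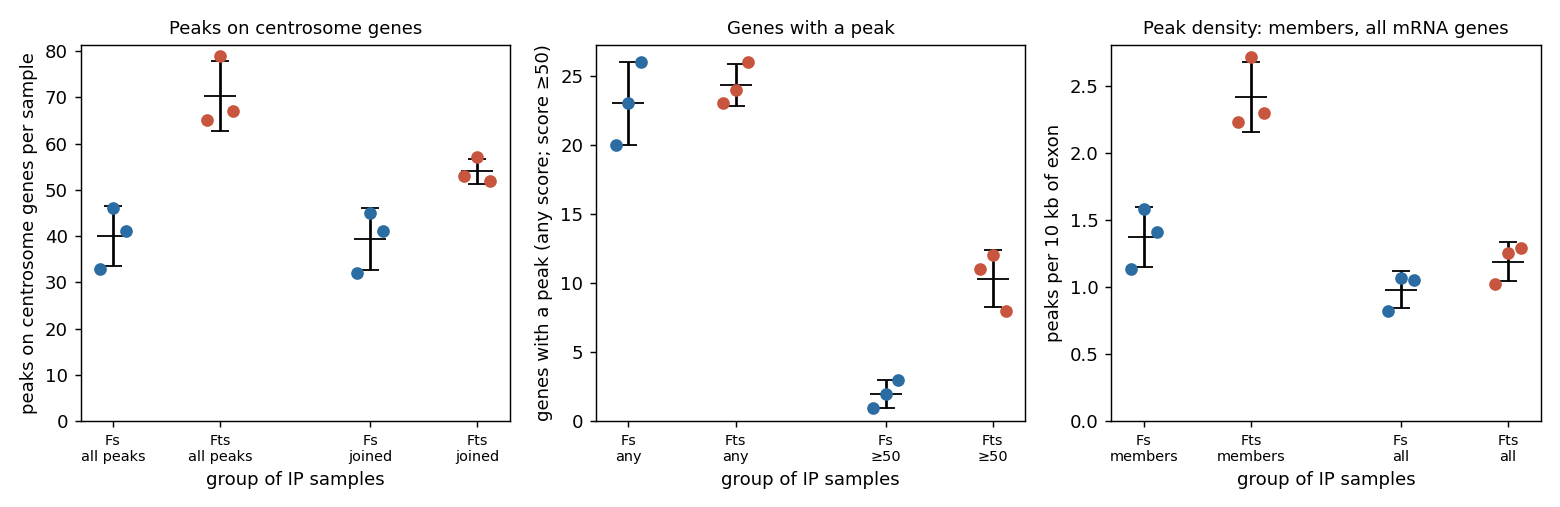
Counts per IP sample, with points for the samples and bars for the mean ± SD of 3. Left, peaks on the centrosome genes, as deposited and after joining across exon junctions; middle, centrosome genes with a peak of any score or of a score of at least 50; right, peaks per 10 kb of exon on the centrosome genes (members) and on all mRNA genes. The Fts points lie above the Fs points for peaks (65 to 79 against 33 to 46), while genes with a peak of any score overlap (23 to 26 against 20 to 26).

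Peaks of high score differed more than peaks as a whole. The Fs samples held 1, 2 and 3 peaks with a score of at least 50 on centrosome genes, and the Fts samples held 12, 20 and 18. Such peaks made up 4.9 ± 2.2% of the centrosome peaks in Fs and 23.5 ± 4.47% in Fts. Over all mRNA genes their share was 16.5 ± 1.5% in Fs and 23.6 ± 3.55% in Fts, so that the centrosome genes stood below all genes in Fs and level with them in Fts. The number of centrosome genes with such a peak was 1, 2 and 3 in Fs and 11, 12 and 8 in Fts.

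Spliced fragments can leave separate peaks on neighbouring exons, and the lists cut peaks at exon ends. When peaks that meet across an exon junction were counted once, the centrosome genes had 32, 45 and 41 peaks in Fs and 53, 57 and 52 in Fts. The difference was then 14.7 peaks in place of 30.3, with a ratio of 1.37, beside a ratio of 1.11 over all mRNA genes. Much of the difference in peak number thus lay in peaks that continue from one exon into the next.

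Among single genes, CEP128, CEP164, CEP350 and PCNT had the largest differences in mean peak number. Together they made up 21.0 of the difference of 30.3 peaks, and without these 4 genes it was 9.33. In all, 20 of the 36 genes with a peak had a higher mean in Fts, 11 a lower mean and 5 the same mean. That is 55.6% higher and 30.6% lower, beside 44.6% and 43.0% of all genes with a peak. With 3 pairs of equal number, the smallest two-sided p-value of an exact sign-flip test for a gene is 0.25. This smallest value was reached by 11 of the 27 genes named under the rule given with the methods. That rule picks some genes by their difference between the groups, so this count follows in part from the choice. No gene passed a threshold of 0.05, which 3 pairs cannot reach, and single genes are described by whether the samples overlap.

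**Figure D2:**
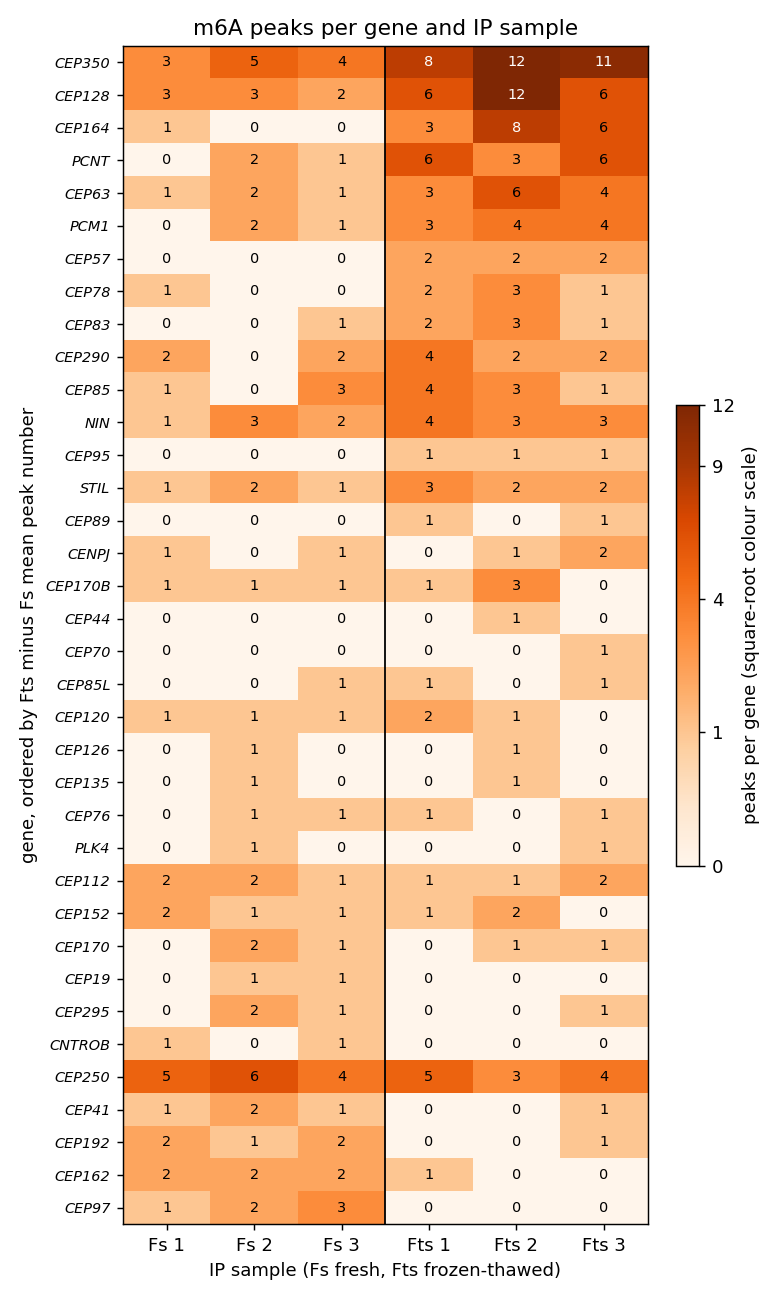
Number of m6A peaks on each of the 36 centrosome genes with a peak (rows, ordered by the Fts minus Fs difference of the means) in each IP sample (columns); colour follows the square root of the number, which is printed in each cell. CEP350, CEP128, CEP164 and PCNT stand at the top with 3 to 12 peaks in each Fts sample, and CEP97, with peaks in Fs samples only, stands at the bottom.

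A count of genes without overlap is read against all genes with a peak. Every Fts sample had more peaks than any Fs sample for 8 of the 36 genes (22.2%), CEP128, CEP164, CEP350, CEP57, CEP63, CEP95, PCM1 and PCNT, and over all genes with a peak the share was 8.98%. The reverse held for 2 genes (5.56%), CEP162 and CEP97, beside 5.36% of all genes. After joining peaks across junctions, 5 genes (13.9%) were higher in every Fts sample, CEP128, CEP164, CEP57, CEP95 and PCNT, beside 8.0% of all genes. The same 2 genes, CEP162 and CEP97, were then lower in every Fts sample, beside 5.29%. The greater length of the centrosome genes gives them more peaks to differ by, and its part in these counts was not tested.

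With peaks of any score, presence in all of one group and none of the other was close to the share over all genes. CEP57 and CEP95, 2 of 36 genes (5.56%), had a peak in all 3 Fts samples and in no Fs sample, beside 5.59% of all genes. CEP97 was the 1 gene (2.78%) with a peak in all 3 Fs samples and in no Fts sample, beside 4.16% of all genes. A peak in all 6 samples was found on 7 genes (19.4%), CEP112, CEP128, CEP250, CEP350, CEP63, NIN and STIL, beside 13.5% of all genes. With a score of at least 50, 6 of the 16 genes that had such a peak in any sample (37.5%) had one in every Fts and no Fs sample, CEP164, CEP350, CEP95, NIN, PCM1 and PCNT, and the share over all genes was 11.6%. At that score no centrosome gene had a peak in all Fs samples and no Fts sample, beside 4.37% of all genes, and none had one in all 6 samples, beside 5.34%. Only CEP128, CEP162, CEP170B and CEP250 reached this score in any Fs sample. The other genes of the 16 entered through Fts alone and could not be called for Fs. The shares at this score thus follow in part from that choice.

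The genes of the subdistal appendages that had peaks were CEP128, NIN, CEP170 and CEP170B. CEP128, a protein of the subdistal appendages, had 3, 3 and 2 peaks in Fs and 6, 12 and 6 in Fts. Every Fts sample lay above every Fs sample, with a difference of the means of 5.33 (exact sign-flip p = 0.25). The gene lies on chr7:103345978-103760323 on the minus strand. In Fs its peaks lay on exons 16, 17 and 19 of 29. In Fts 13 exons carried a peak in at least 1 sample. A run from exon 5 to exon 10 was complete in Fts 2 alone. Of the exons in this run, Fts 1 had 9 and 10, Fts 3 had 5, 6 and 10, and no Fs sample had any. Exon 10 scored 513.84, 3100 and 3100 in the 3 Fts samples, and exon 8 scored 1462.15 in Fts 2 alone. Exon 19 was the single exon of all centrosome genes with a peak in all 6 samples, with scores of 12.81, 85.44 and 11.34 in Fs and 3.14, 28.77 and 82.84 in Fts. The scores of this shared exon overlapped between the groups. Joined across junctions, CEP128 had 2 peaks in each Fs and 4 in each Fts sample.

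NIN encodes ninein, which anchors microtubules at the subdistal appendages. It had 1, 3 and 2 peaks in Fs and 4, 3 and 3 in Fts, and these counts overlap at 3. The exons that carried the peaks did not: of its 34 exons, exon 19 had a peak in all 3 Fs samples and no Fts sample, with scores of 16.56, 3.52 and 11.42. The next exon, 20, had a peak in all 3 Fts samples and no Fs sample, with scores of 272.06, 558.93 and 169.11. Exon 15 was found in Fts only as well, with scores of 19.37, 60.46 and 60.54. Equal peak numbers on a gene can therefore stand for different places on it.

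CEP170B, a paralog of the microtubule-binding CEP170, had the highest scores of the list in fresh sperm. Its exon 13 scored 96.72, 177.87 and 135.73 in Fs, 129.61 and 72.29 in Fts 1 and Fts 2, and had no peak in Fts 3. The Fs and Fts scores overlapped where both had a peak. It was the single centrosome gene with a score of at least 50 in more than 1 Fs sample.

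Among the distal appendage genes, CEP164, which is needed to dock the centriole to a membrane, had 1, 0 and 0 peaks in Fs and 3, 8 and 6 in Fts. The groups did not overlap, and the difference of the means was 5.33 (exact sign-flip p = 0.25). The gene lies on chr9:44670857-44752477 on the plus strand and has 32 exons. Exon 8 scored 533.84, 3124.94 and 3100 in the 3 Fts samples and exon 14 scored 93.94, 183.25 and 177.12, and neither had a peak in any Fs sample. Exons 11 and 16 had peaks in Fts 2 and Fts 3 only, with scores of 233.33 and 100.39 on exon 11 and 52.78 and 114.71 on exon 16. The only Fs peak, on exon 19, scored 8.65. CEP83, at the root of the distal appendages, had 0, 0 and 1 peaks in Fs and 2, 3 and 1 in Fts, which overlap at 1. CEP89 had peaks in Fts 1 and Fts 3 alone, 1 in each.

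The pericentriolar material was represented by PCNT and CEP57. PCNT encodes pericentrin, the large scaffold of this matrix, and had 0, 2 and 1 peaks in Fs and 6, 3 and 6 in Fts. The difference was 4.0 peaks (exact sign-flip p = 0.25), with no overlap. In Fts they lay mainly on exons 31 to 40 of 49. Exon 39 scored 989.7, 1371.63 and 3100 in Fts, while in Fs it had a peak in Fs 2 alone, with a score of 6.07. Exon 2 had peaks in Fs 2 and Fs 3 and in no Fts sample. CEP57, which organises the same matrix, had no peak in Fs and 2 in each Fts sample. Its exon 4 scored 439.35, 930.88 and 25.4 in Fts. This exon has 1 other match in the genome at 97.2% identity over at least 50% of its length, so that reads of that place could be counted here.

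CEP350 is a large protein of the mother centriole that recruits other proteins needed to start a cilium. It had the most peaks of the list over the 6 samples together, 3, 5 and 4 in Fs and 8, 12 and 11 in Fts, a difference of 6.33 without overlap (exact sign-flip p = 0.25). The gene lies on chr9:121590674-121744860 on the plus strand and has 43 exons. Exons 6, 9, 31, 37 and 39 had a peak in every Fts and no Fs sample. Their scores ranged from 3.46 on exon 31 to 124.12 on exon 6. Exon 10 scored 12.77 and 6.15 in Fs 1 and Fs 2 and 187.62, 278.57 and 323.29 in the Fts samples. Exon 22 went the other way, with scores of 5.73, 17.28 and 21.68 in Fs and a peak in Fts 2 alone, at 5.69. The last exon, in the 3′ UTR, had peaks in Fs 2 and Fs 3 and none in Fts. Joined across junctions, CEP350 had 3, 5 and 4 peaks in Fs and 5, 6 and 4 in Fts, and the groups then overlapped.

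**Figure D3:**
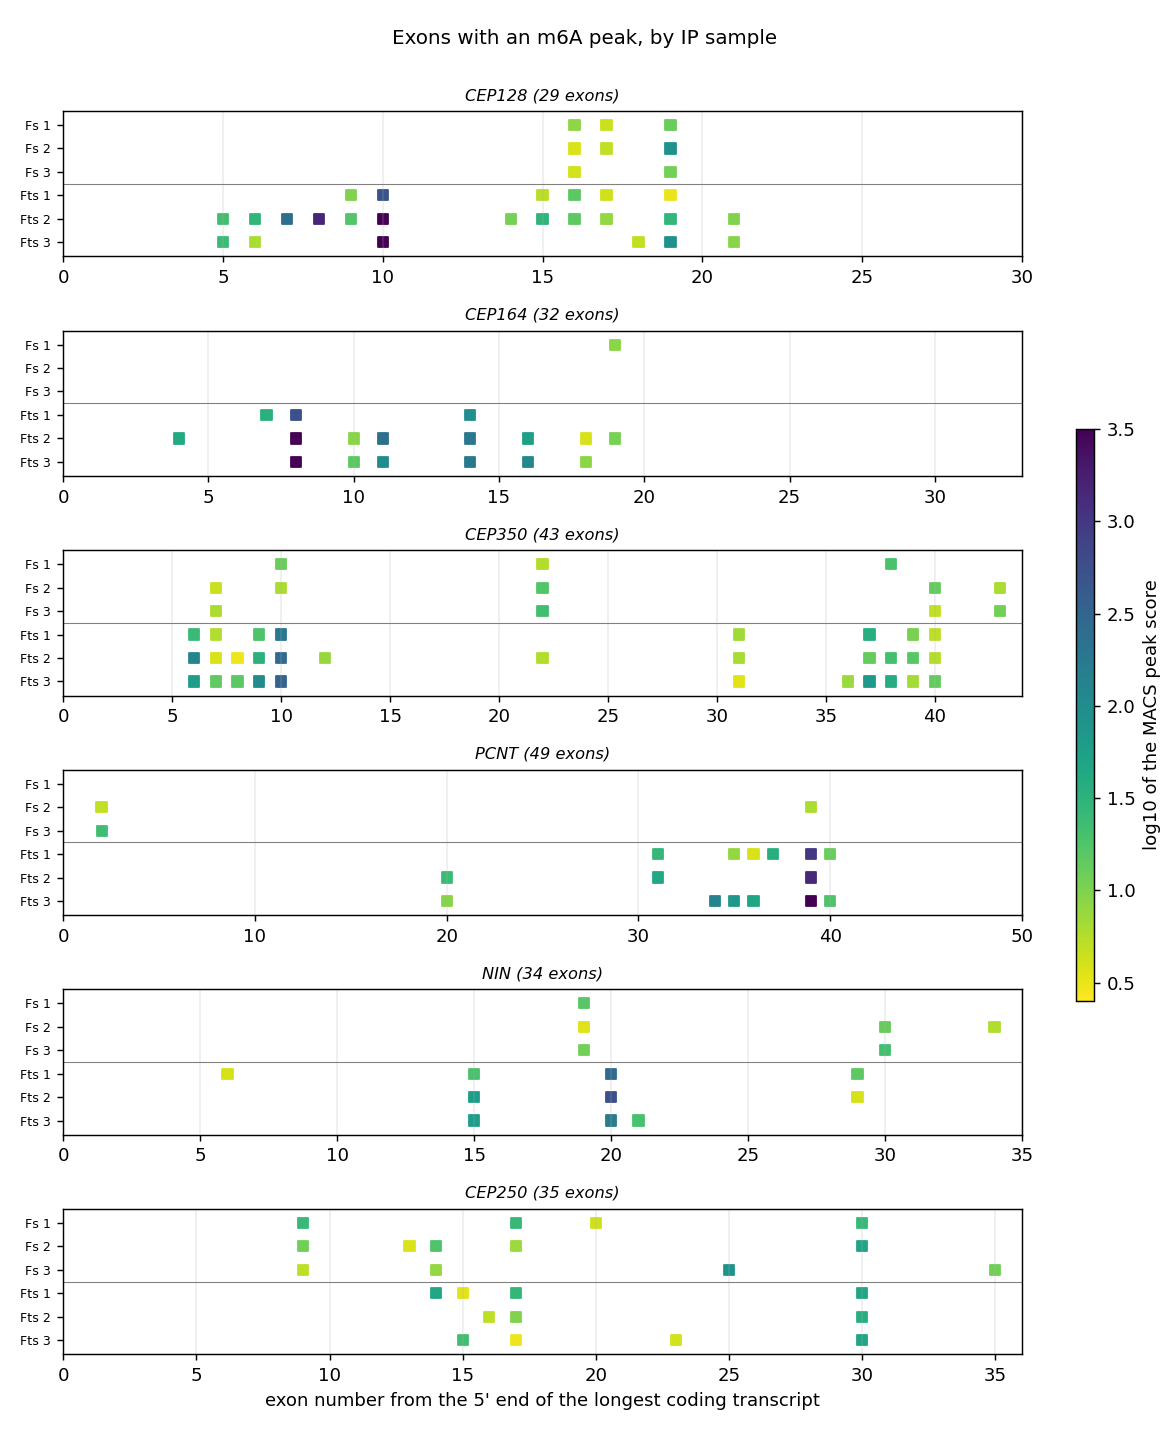
Exons with a peak on 6 genes, by exon number from the 5′ end (horizontal axis) and IP sample (vertical axis); each square is an exon with a peak and its colour gives log10 of the MACS score. CEP128 and CEP164 show dark squares on exons 10 and 8 in the 3 Fts rows, NIN has exon 19 in the Fs rows and exon 20 in the Fts rows, and CEP250 has peaks spread over both groups.

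Of the genes that build new centrioles, 12 of 13 had a peak in some sample. As a group they had 10, 11 and 12 peaks in Fs and 13, 17 and 12 in Fts, which overlap at 12. CEP63, which works with CEP152 at the parent centriole, stood apart in this group with 1, 2 and 1 peaks in Fs and 3, 6 and 4 in Fts (difference 3.0, exact sign-flip p = 0.25). Joined across junctions it had 2, 3 and 2 in Fts, a difference of 1.0, and the groups then overlapped at 2. Its exon 4 scored 398.38 in Fts 2 alone, and exon 6 scored 6.61, 45.88 and 83.6 in Fts and 9.82 in Fs 2. CEP192, a scaffold that recruits the kinase PLK4, had 2, 1 and 2 peaks in Fs and 0, 0 and 1 in Fts. Its exon 39 was found in all 3 Fs samples and no Fts sample, with scores of 25.21, 4.68 and 18. PLK4, which starts the building of a centriole, had 1 peak in Fs 2 and 1 in Fts 3. Its partner STIL had 1, 2 and 1 peaks in Fs and 3, 2 and 2 in Fts, which overlap at 2.

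The other genes of centriole assembly had few peaks in either group. CENPJ, which binds tubulin and sets centriole length, had 1, 0 and 1 peaks in Fs and 0, 1 and 2 in Fts. CEP152 had 2, 1 and 1 in Fs and 1, 2 and 0 in Fts, and its exon 5 scored 21.81, 32.5 and 27.52 in Fs and 45.87 in Fts 2. CNTROB encodes centrobin of the daughter centriole and had 1 peak in Fs 1 and 1 in Fs 3, both on exon 8, and none in Fts. CEP120 carried a single peak in every Fs sample and 2, 1 and 0 peaks in Fts. CEP135 had 1 peak in Fs 2 and 1 in Fts 2, the latter with a score of 582.84 and no counterpart in the other Fts samples. CEP85 had 1, 0 and 3 peaks in Fs and 4, 3 and 1 in Fts.

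Centriolar satellites are granules that carry proteins to the centrosome. PCM1, their scaffold, had 0, 2 and 1 peaks in Fs and 3, 4 and 4 in Fts, a difference of 2.67 without overlap (exact sign-flip p = 0.25). Joined across junctions it had 2, 4 and 4 in Fts, which overlap with Fs at 2. Its exon 15 scored 78.95, 83.49 and 121.65 in Fts and 12.18 in Fs 2. CEP290, a satellite protein that also works at the base of the cilium, had 2, 0 and 2 peaks in Fs and 4, 2 and 2 in Fts, which overlap at 2. The other 3 satellite genes, CEP131, CEP72 and OFD1, had no peak.

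Several genes had more peaks in fresh sperm. CEP97, which caps the distal end of the centriole, had 1, 2 and 3 peaks in Fs and none in Fts, a difference of -2.0 (exact sign-flip p = 0.25). Its exon 9 scored 6.76, 11.21 and 18.47 in Fs, and its last exon, in the 3′ UTR, had peaks in Fs 2 and Fs 3. CEP162, which acts at the base of the growing cilium, had 2 peaks in each Fs sample and 1, 0 and 0 in Fts, a difference of -1.67 (exact sign-flip p = 0.25). When at least 0.5 of a peak had to lie on exons, the difference was -0.667 (exact sign-flip p = 0.5) and the groups overlapped. Its first exon, in the 5′ UTR, was found in all 3 Fs samples and no Fts sample, and exon 19 scored 14.03, 24.84 and 62.09 in Fs and 11.33 in Fts 1. All scores on CEP97 lay under 20. CEP112, a coiled-coil protein, had 2, 2 and 1 peaks in Fs and 1, 1 and 2 in Fts, and its exon 6 was found in Fs only, with scores of 23.83, 14.6 and 32.11.

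CEP250, the base of the linker between the centrioles of a pair, had peaks in all 6 samples, 5, 6 and 4 in Fs and 5, 3 and 4 in Fts. The counts overlapped, and the difference of the means was -1.0 (exact sign-flip p = 1.0). Exon 9 was found in the 3 Fs samples alone, with scores of 25.96, 11.66 and 5.11, while the long exon 30 of 2604 bp scored 25.74 and 48.37 in Fs 1 and Fs 2 and 46.26, 34.93 and 47.18 in Fts. It was the gene of this list with many peaks and no excess in Fts. CEP95 had 1 peak in each Fts sample and none in Fs, on exon 11 each time, with scores of 229.96, 406.93 and 543.75. CEP78, a centriole wall protein needed for cilia, had 1, 0 and 0 peaks in Fs and 2, 3 and 1 in Fts, which overlap at 1.

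At the level of exons, 154 of the 987 exons of these genes had a peak in at least 1 sample. Exons with a peak numbered 31, 43 and 39 in Fs and 62, 79 and 67 in Fts. That is 3.14, 4.36 and 3.95% of the exons in Fs and 6.28, 8.0 and 6.79% in Fts, beside 3.14 to 4.06% and 3.97 to 4.99% of the exons of all mRNA genes. In Fs the centrosome exons were thus at the level of all exons, and in Fts above it. A peak in every Fts and no Fs sample was found on 14 of the 154 exons (9.09%), and over all exons with a peak the share was 6.97%. The reverse was found on 6 exons (3.9%), beside 3.62%, and a peak in all 6 samples on 1 exon (0.649%), beside 3.34%.

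The 14 exons found in Fts alone lay on 8 genes, 5 of them on CEP350, 2 each on CEP164 and NIN, and 1 each on CEP128, CEP57, CEP78, CEP83 and CEP95. The 6 exons found in Fs alone lay on CEP112, CEP162, CEP192, CEP250, CEP97 and NIN. When only peaks with a score of at least 50 were counted, 8 of 29 exons (27.6%) had one in every Fts and no Fs sample, beside 9.86% of all exons with such a peak. These were CEP128 exon 10, CEP164 exons 8 and 14, CEP350 exon 10, CEP95 exon 11, NIN exon 20, PCM1 exon 15 and PCNT exon 39, of which the exons of CEP350, PCM1 and PCNT had weaker peaks in Fs. No exon went the other way at that score, beside 3.44%, and the highest score on the 6 exons found in Fs alone was 32.11, on CEP112. Only CEP128 exon 19, CEP162 exon 19, CEP170B exon 13 and CEP250 exon 25 reached a score of 50 in any Fs sample. The other exons with such a score entered through Fts alone, so that these shares follow in part from that choice. Of 29 exons that were called or scored at least 200, CEP57 exon 4 and CEP83 exon 12 had another match in the genome, the latter at 85.1% identity.

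**Figure D4:**
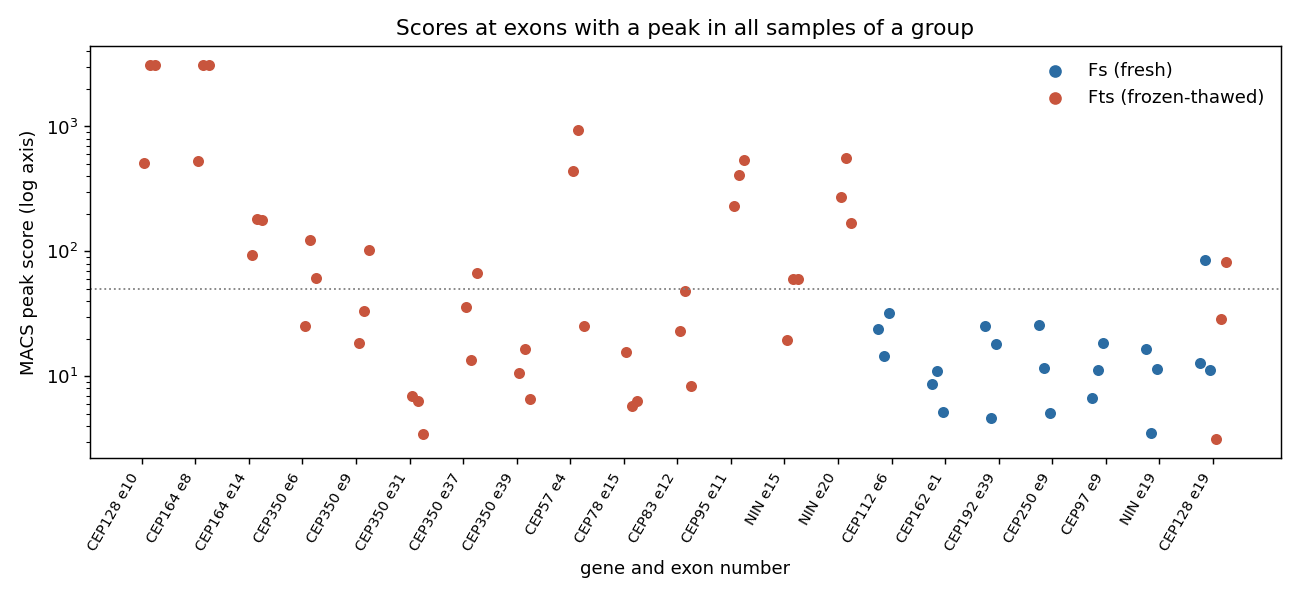
MACS scores (log axis) in each sample at the exons with a peak in every sample of one group and none of the other, and at CEP128 exon 19 (e19), the 1 exon with a peak in all 6 samples; blue points are Fs, red points Fts, and the dotted line marks a score of 50. The 14 exons found in Fts alone range from 3.46 to 3124.94, and the 6 found in Fs alone stay at or under 32.11.

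Peaks were placed on the longest coding transcript of each gene by their midpoint. Most centrosome peaks lay in the coding sequence, 88.0 ± 7.63% in Fs and 95.8 ± 2.4% in Fts, and the coding sequence away from the start and stop codons makes up 56.1% of the length of these transcripts. The values of the samples were 96.8, 83.3 and 83.8% in Fs and 98.4, 93.7 and 95.5% in Fts, and the groups overlapped. The 3′ UTR makes up 29.7% of the length and held 0, 5 and 3 peaks in Fs and 0, 1 and 0 in Fts. Over all mRNA genes the coding share was 70.8 ± 0.63% in Fs and 75.0 ± 0.48% in Fts. Within 100 nt of a stop codon, where m6A is known to gather in many tissues, each group had 1 centrosome peak in all.

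Many peaks on centrosome genes covered an exon exactly from end to end. This was so for 44.2 ± 8.93% of them in Fs and 73.1 ± 2.03% in Fts, without overlap, beside 39.7 ± 0.619% and 51.8 ± 1.78% over all mRNA genes. Peaks that lay wholly within an exon made up 16.4 ± 10.03% in Fs and 2.88 ± 1.59% in Fts. Internal exons with a peak were longer than those without, with medians of 166.5 bp (n = 138) and 129 bp (n = 760). A peak of this kind marks an exon and does not place the m6A within it.

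**Figure D5:**
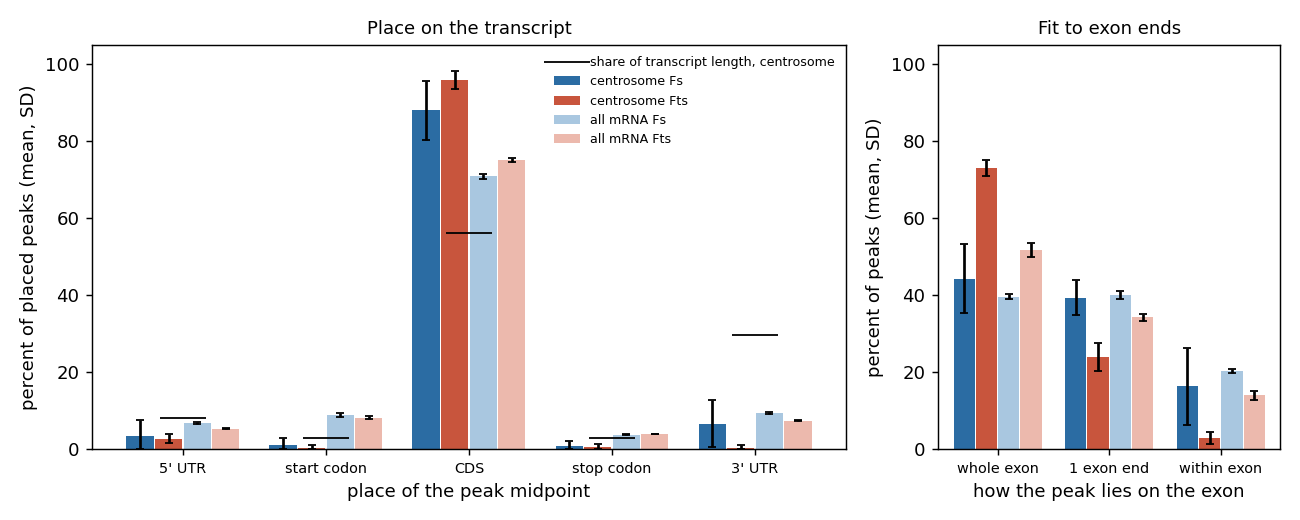
Left, percent of placed peaks by the place of their midpoint on the transcript, and right, percent of peaks that cover a whole exon, reach 1 exon end or lie within an exon; bars are means over 3 IP samples with the SD, dark for the centrosome genes and pale for all mRNA genes, and black dashes give the share of the transcript length of the centrosome genes. Coding sequence holds 88.0 and 95.8% of the centrosome peaks in Fs and Fts, and whole exons 44.2 and 73.1%.

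The sequence around the peak midpoints was searched on the transcript strand in windows that reached 50 nt to each side. RRACH was found in 84.9 ± 4.87% of the centrosome peaks in Fs and 84.8 ± 2.13% in Fts, beside 73.6 ± 0.851% and 77.2 ± 0.309% of all exonic mRNA peaks. GGACT, of which each match is also a match to RRACH, was found in 4.66 ± 1.84% and 2.84 ± 1.15% of the centrosome peaks, beside 10.2 ± 0.197% and 9.61 ± 0.413% of all. The Fs and Fts values differed by less than the sum of their SDs for both motifs on the centrosome genes. The GGACT shares of the centrosome peaks rest on few windows. They were 2, 2 and 1 of 31, 42 and 36 in Fs, and 1, 3 and 2 of 63, 78 and 65 in Fts. With these small counts, GGACT was less frequent than in all peaks. RRACH was more frequent than in all peaks, in both groups.

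Markers of other cell types were counted in the same way. Epithelial markers had 0, 1 and 2 peaks in Fs and 5, 5 and 4 in Fts over 5 genes, with KRT8, a keratin, at 0 in each Fs sample and at 3, 4 and 2 in Fts. Leukocyte markers had 0, 2 and 2 peaks in Fs and 1, 1 and 2 in Fts over 7 genes, and the groups overlapped. Markers of Sertoli and Leydig cells had 0, 2 and 2 in Fs and 1, 2 and 1 in Fts over 5 genes, and spermatogonial markers had 1, 1 and 0 in Fs and 1, 2 and 3 in Fts over 4 genes. KRT18 had 0, 0 and 1 peaks in Fs and 2, 1 and 1 in Fts, CDH1 had 0, 1 and 1 in Fs and 0, 0 and 1 in Fts, and EPCAM and KRT5 had none in any sample. Of the Sertoli and Leydig markers, SOX9 had no peak in Fs and 1 in each Fts sample, while STAR and INSL3 had peaks in Fs only, CYP17A1 in Fts 2 only and AMH none. The summed epithelial peaks thus moved with the group in the same direction as the centrosome peaks, and so did the summed sperm and spermatid peaks. The sums of the leukocyte, the Sertoli and Leydig, and the spermatogonial markers overlapped between the groups. The part of other cell types in the result was not tested.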

How the data were processed

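MeRIP-seq was performed on 3 Fs and 3 Fts sperm samples, with 1 IP and 1 input library each. The authors trimmed reads with cutadapt (1.9.3), aligned them with Hisat2 to susScr11 (Sscrofa11.1), ran MACS separately on every IP sample with the matching input as control, without pooling, and kept those on mRNAs with a program of their own. Each deposited peak carries the MACS score, a p-value written as 10 times its -log10. The list of sites that differ between the groups was not used here, since it holds the authors' own comparison (positions and a score made from its p-value).

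Peaks were assigned to genes by an overlap of 1 bp or more with same-strand exons of RefSeq mRNAs (Annotation Release 106). Exons were numbered on the longest coding transcript, and peaks on exons of other transcripts alone have no exon number. A midpoint up to 100 nt from a start or stop codon fell into the class of that codon. Members and lists were chosen with earlier results of these data known. Named genes had a peak in at least 5 of the 6 samples, or in all samples of one group and none of the other, or were among the 10 largest differences or 10 highest scores, or were in the list by name; other genes named in the report were chosen after their values were seen. The 3 pairs of equal number were compared by two-sided exact sign-flip tests, which cannot go below 0.25. P-values refer to these samples only. A value of 0.25 from the 3 pairs means that the 3 differences had the same sign, whatever their size. Lists of 2 samples shared 1 to 17 peaks of identical position and score, so that no pair of lists was the same. As alternatives, peaks were limited to scores of at least 20 (p 0.01) or at least 50 (p 1e-05); others concerned overlap, joined peaks, the 8000 highest-scoring peaks, codon classes of 200 nt, the pairs and each replicate left out.

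Exon sequences were searched against the genome with blastn (2.17.0), keeping matches of at least 80% identity over at least 50% of the exon. Python (3.11.15), pandas (2.3.3), numpy (2.4.6) and matplotlib (3.10.9) were used. The counting was tested on simulated lists, in which 300 of 300 genes with planted peaks were found with their pattern.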

Additional observations from a re-analysis of the deposited data

How the results depend on the processing

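With a minimum score of 20, the difference in peaks on centrosome genes was 22.0, in genes with a peak 6.67, in their share of exonic peaks 0.435 percentage points and in the coding share 1.62 points; 4 genes were found in all Fts and no Fs samples, 0 the other way, 0 genes had fewer peaks in every Fts sample, 1 had a peak in all 6 samples, and 0 exons were found in Fs alone. With a minimum score of 50 these values were 14.7, 8.33, 0.561 and -1.67, a reversed coding share, then 6, 0, 0, 0 and 0, and 8 exons were found in Fts alone. With at least 0.5 of the peak required to lie on exons, 1 gene (CEP97) had fewer peaks in every Fts sample. Joined across junctions, the difference in peaks was 14.7, the share 0.125 points, and 5 genes had more peaks in every Fts sample. With the 8000 highest-scoring peaks of each sample, the difference in peaks was 19.3 and that in genes with a peak reversed to -0.333. Without CEP128, CEP164, CEP350 and PCNT, chosen after seeing the data, it was 9.33 peaks. A minimum score and the choice of 8000 peaks leave fewer peaks to count; otherwise the cause was not tested.

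Leaving out each replicate number in turn gave a difference of 29.0 to 32.5 peaks. It gave 3 to 4 genes found in Fts alone, 2 to 3 found in Fs alone, 3 to 5 with fewer peaks in every Fts sample, 24 to 30 exons found in Fts alone (30 without replicate 1) and 6 to 15 in Fs alone (15 without replicate 1), where fewer samples have to meet the rule. Of 243 alternatives for 27 single genes, 163 kept the sign of the difference, 47 stayed at 0, 17 went to 0 (CEP97 at scores of 20 and 50 and CEP250 without replicate 2 among them), 7 left 0 and 9 reversed. The reversed ones were CENPJ (-0.333), CEP170B (-0.333), CEP250 (0.333) and STIL (-0.333) at a score of 20, CEP112 (0.333) and CEP170B (-0.333) at 50, CEP170B (-0.333) and STIL (-0.667) with the 8000 peaks, and CEP170B (-0.500) without replicate 2. Part of the 163 and of the 47 was fixed in advance. For each of the 27 genes, the alternative that ignored the pairs changed only the test, so that the difference could not move. NINL, OFD1 and SASS6 had no peak in any sample and could only stay at 0.

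Deviations of samples of equal number from their group means had correlations of -0.0229, -0.0125 and -0.00184 over 24967 exons, which gave no sign of pairing; whether equal numbers mark the same boar is not given in the labels. Without the replicate block, an exact permutation of 3 against 3 gave its smallest p-value, 0.1, for 10 genes, where the block gave its smallest, 0.25, for 11. Peak lists limit the results to places that passed the authors' threshold: no peak does not mean no m6A.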

Other observations

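Centrosome genes outside the list, given by a second list of 64 symbols of which 62 are annotated, showed peak numbers of a similar kind. Of these, 45 had a peak, and together they had 25, 40 and 43 peaks in Fs and 63, 75 and 65 in Fts. Their genes with a peak numbered 18, 23 and 26 in Fs and 29, 32 and 30 in Fts. These gene numbers did not overlap, unlike those of the main list. More peaks in every Fts than in any Fs sample were found on 11 of the 45 genes with a peak, and fewer on 1, HAUS5 (over all genes with a peak the shares were 8.98% and 5.36%), a subunit of the augmin complex that branches microtubules, with 2, 3 and 3 peaks in Fs and 0 in each Fts sample. CDK5RAP2, which recruits microtubule-nucleating complexes to the pericentriolar material, had 1, 1 and 2 peaks in Fs and 3, 4 and 3 in Fts. FBF1, a distal appendage protein like CEP164, had none in Fs and 1, 3 and 1 in Fts. TTBK2, the kinase that starts cilium growth, had 0, 0 and 1 in Fs and 3, 2 and 2 in Fts, with a highest score of 1031.62. ODF2, which is found both in the mother centriole and in the outer dense fibres of the sperm tail, had none in Fs and 3, 3 and 0 in Fts. POC1A, DZIP1 and HAUS8 were among the genes of the second list with a lower mean in Fts, and their groups overlapped. This second list was also chosen with earlier results of these data known.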
